A study of Rattus norvegicus albus with 6 samples.

Results

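Ribosomal protein genes encode the proteins of the cytosolic ribosome, and 73 of the 14322 named genes on the arrays were taken as this group by their symbols. A gene was included when its symbol began with Rpl or Rps and a digit, or was Rpsa, Rplp0, Rplp1 or Rplp2. The 6 genes of Rps6k kinases and 1 pseudogene symbol were left out. The rule for genes used symbols alone, and each gene was then read from its probe set with the highest mean level. Of the 73 genes, 42 encode proteins of the large subunit, 27 encode proteins of the small subunit and 3 encode the P stalk, while Rps19bp1 encodes a binding partner of a ribosomal protein and no ribosomal protein itself. Rpl22l1, Rpl36al1, Rpl37l1 and Rps4y2 are paralogues of standard ribosomal protein genes. Some standard ribosomal protein genes were not analysed here.

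The arrays profiled hepatic stellate cells isolated from rats, the fat-storing liver cells that become matrix-producing myofibroblasts, after 7 days on plastic with 10% serum. The first treated group received an adenovirus carrying DKK-1, a secreted antagonist of Wnt co-receptors (Ad.DKK-1, MOI 200), and its control received the same dose of virus with green fluorescent protein in its place (Ad.GFP). Virus was present for 24 h in 5% serum, and a further 24 h without serum followed. The other treated groups received ICG-001 at 10 µM, which disrupts the partnership of β-catenin with CBP, or FJ9 at 200 µM, an inhibitor of the Frizzled and Dishevelled interaction, for 24 h without serum, and each had a vehicle array of its own. Each group had 1 array, hybridised with pooled RNA of 3 to 4 rats, and a difference for a single treatment therefore has no replicate and no test. The labels do not say whether treated and control pools came from the same animals, nor whose DKK-1 the virus carried. The study asked which genes depend on canonical Wnt signalling in these cells.

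A ribosome has a small subunit, which reads the mRNA, and a large subunit, which joins amino acids and holds the flexible P stalk that recruits elongation factors. Cells make its proteins in matched amounts, and their mRNAs begin with a short run of pyrimidines, the TOP element, through which mTOR and LARP1 control translation of the whole set. Transcription of many of these genes is promoted by Myc, which is often listed as a Wnt target. Some members also act outside the ribosome, such as Rpl5 and Rpl11, which bind the p53 regulator Mdm2 when ribosome assembly is disturbed.

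Stellate and myofibroblast markers had medians of 11.5 to 12.5 across the 6 arrays, and 12 of 12 named on the array passed the level filter described next. Medians of hepatocyte markers were 5.23 to 6.56 with 2 of 8 past the filter, those of Kupffer cell markers 5.47 to 6.34 with 2 of 8, and those of lymphocyte markers 5.53 to 6.72 with 1 of 3. Endothelial markers had 1 of 3 past the filter and cholangiocyte markers 2 of 2, with medians up to 6.33 and 7.05. The stellate marker median was 11.5 on Ad.DKK-1 and 12.5 on Ad.GFP, 12.2 with ICG-001 and 12.4 with its vehicle, and 11.9 with FJ9 and 12.4 with its vehicle. It was lower on the treated array of every pair, and its part in the differences below was not tested. Dkk1 read 6.01 on Ad.DKK-1 and 5.85 on Ad.GFP, under the filter, so it did not check the label. In pooled cultures fewer cells of a type and less RNA per cell cannot be told apart, and array values say nothing of RNA per cell.

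Every level below is a log2 expression value, and every difference is the treated array minus its own control on that scale. The level filter left out the lowest 30% of named genes by mean level (under 6.39) and kept 10025 genes, including 73 of the 73 ribosomal protein genes. Their mean levels over the 6 arrays ran from 8.15 to 13.1 with a median of 11.7, and the brightest probe set of an array read 13.5 to 13.8. Levels of different genes come from different probes, so these ranges only describe the signal and rank no gene.

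Levels of the members spanned a narrow range. Over the 6 arrays a ribosomal protein gene spanned a median of 0.61, from 0.21 for Rps3 to 1.28 for Rpl39, whereas the median over all 10025 genes was 0.91. The standard deviation of the members' differences was 0.21 for Ad.DKK-1, 0.29 for ICG-001 and 0.14 for FJ9, beside 0.68, 0.56 and 0.63 over all genes. It was 0.16 between the vehicle arrays (vehicle for FJ9 minus vehicle for ICG-001), where all genes had 0.34. By signal the median member lay at percentile 98.2 of the named genes. These spreads were not compared with those of genes of like signal.

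The middle of the group lay in a different place for each treatment. The median difference of the 73 genes was −0.19 with Ad.DKK-1, −0.02 with ICG-001 and 0.29 with FJ9, where all genes had medians of −0.07, 0.01 and 0.01. With median centring of the arrays the members' medians were −0.10, 0.15 and 0.29, and those of all genes 0.03, 0.18 and 0.01. Between the vehicle arrays the members' median was 0.10 and that of all genes 0.02. As deposited, 57 members were lower under Ad.DKK-1 and higher under FJ9, a pattern found in 20.1% of all genes. With median centring 29 members were above 0 under Ad.DKK-1, against 12 as deposited, so fewer had that pattern. Only small displacements underlie these counts, since a median of 0.29 is 1.22-fold and a median of −0.19 is 1.14-fold.

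**Figure D1:**
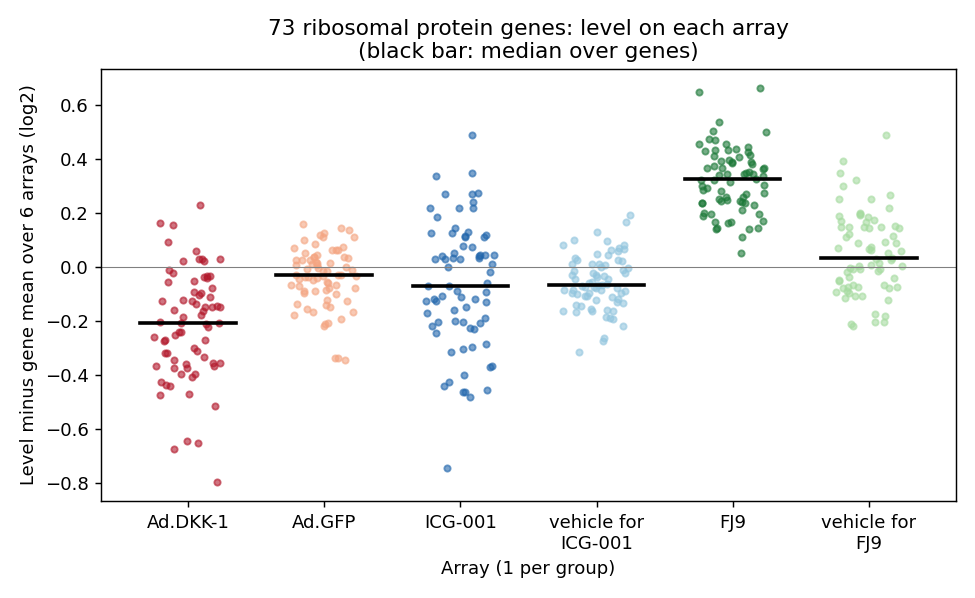
Level of each of the 73 ribosomal protein genes on each of the 6 arrays (horizontal axis), as log2 level minus the gene's mean over the 6 arrays (vertical axis). Points are genes and black bars are medians over genes, which lay at 0.32 on the FJ9 array and at −0.21 on the Ad.DKK-1 array.

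Nearly the whole set read slightly higher with FJ9. The difference was above 0 for 69 of 73 members, against 50.8% of all genes, and the quartiles were 0.19 and 0.35. The FJ9 array was the highest of the 6 for 62 members (18.4% of all genes), and it lay above all 3 control arrays for 69 members (33.6%). At a difference of at least 0.32 either way, 26 members were higher (25.6% of all genes) and 0 were lower (26.5%). At 1.5-fold, 0 of 73 members were higher and 0 lower, where 11.6% of all genes were higher and 14.8% lower. The set thus lay in a narrow band.

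The largest FJ9 differences were found in both subunits. Rps14, a protein of the small subunit platform whose loss marks the human 5q deletion syndrome, read 11.63 with FJ9 and 11.08 with its vehicle, a difference of 0.55. The other 4 arrays read between 10.56 and 10.86 for Rps14, so the FJ9 array stood clear of every other. Rps18 of the small subunit head differed by 0.54, with 11.35 on the FJ9 array and 10.81 on its vehicle. Its level on the ICG-001 array was 11.25, close to the FJ9 array. Rpl8, which lies near the peptidyl transferase centre, read 12.37 with FJ9 and 11.84 with vehicle (0.53). Rpl18 read 11.93 against 11.41 (0.52), and Rpl3, which also reaches towards the catalytic centre, read 11.83 against 11.32 (0.51). For Rpl8, Rpl18 and Rpl3 the other 4 arrays read 11.83 to 11.99, 11.19 to 11.52 and 11.14 to 11.46, and each gene was highest on the FJ9 array.

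Other members named for their roles had FJ9 differences above 0, as 69 of the 73 did. Rps6, the substrate of the S6 kinases, differed by 0.35 with FJ9, and Rpl5 by 0.33. Rpl13a, which can leave the ribosome and repress inflammatory mRNAs, differed by 0.28, Rps3 by 0.21 and Rpl11 by 0.07. Rpl11 and Rpl5 act in the same 5S particle, and their FJ9 differences were 0.07 and 0.33.

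The remaining 4 members lay below 0 with FJ9. Rpl41, which encodes a very short peptide of the ribosome, differed by −0.14, Rps19bp1 and Rpl39 by −0.02 each, and Rps29 by −0.005. Rpl39 lines the exit tunnel of the large subunit and Rps29 is a small zinc-binding protein of the small subunit head. Rpl41 had probe sets that ran from −0.14 to 0.11, so its sign differed between them. All 4 were higher on the vehicle for FJ9 than on the vehicle for ICG-001, by 0.36, 0.29, 0.36 and 0.16 in the same order. Against the vehicle for ICG-001 the FJ9 array was above for 73 of 73 members (47.4% of all genes).

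**Figure D2:**
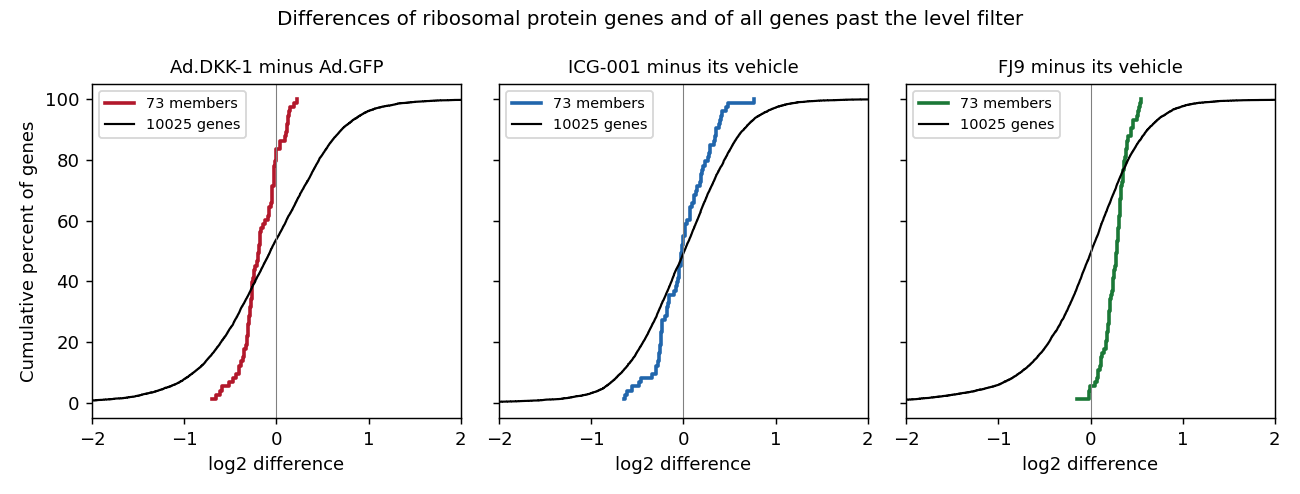
Cumulative percent of genes (vertical axis) by log2 difference, treated minus own control (horizontal axis, outermost genes outside the range drawn), for the 73 ribosomal protein genes in colour and all 10025 genes past the level filter in black. The members rise steeply near 0.29 with FJ9, while the Ad.DKK-1 curve lies left of 0 and the ICG-001 curve is centred near 0.

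Most members read lower with Ad.DKK-1. The difference was below 0 for 61 of 73 members (53.8% of all genes), with quartiles of −0.31 and −0.02. As deposited 12 members were above 0 (46.2% of all genes). With median centring of the arrays 29 were above 0 (51.9%), with quantile normalization 21 (48.8%) and with cyclic loess 22 (48.8%). The Ad.DKK-1 array was the lowest of the 6 for 39 members (27.5% of all genes), and below all 3 control arrays for 48 (41.4%). At a difference of at least 0.32, 14 members were lower, where 34.5% of all genes were, and 0 were higher (27.8%). At 1.5-fold 4 were lower, or 5.48% of members beside 20.8% of all genes, and 0 were higher (14.5%). These counts past a fixed size lie under the background, and the displacement of the group shows in its sign counts and median.

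The 4 genes at least 1.5-fold lower under Ad.DKK-1 were Rpl39, Rps19, Rpl34 and Rpl27a. Rpl39 read 9.23 on Ad.DKK-1 and 9.93 on Ad.GFP (−0.70), and between 9.82 and 10.51 on the other 4 arrays. Rps19, the gene most often mutated in human Diamond-Blackfan anaemia, read 9.54 on Ad.DKK-1 and 10.20 on Ad.GFP (−0.66), and between 10.19 and 10.65 elsewhere. Rpl34 read 11.66 against 12.28 (−0.61), and Rpl27a read 10.79 against 11.38 (−0.59). For each of these 4 genes the Ad.DKK-1 array was the lowest of the 6. Rpl15, of the large subunit core, followed at −0.51, with 9.32 on Ad.DKK-1 and 9.83 on Ad.GFP. Median centring of the arrays left 1 of these 4 past 1.5-fold.

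Among members outside this top group, Rpl3 (−0.32), Rpl11 (−0.31), Rpl13a (−0.37) and Rpl5 (−0.18) were lower under Ad.DKK-1. Rps14 read −0.02, Rps3 −0.08 and Rps4x −0.27. Above 0 were 12 members, and these included Rplp0 (0.22), Rps2 (0.19), Rpl22l1 (0.15), Rps3a (0.13), Rpl35 (0.13), Rpl10 (0.12), Rps6 (0.11), Rplp1 (0.09) and Rplp2 (0.04). The largest of the 12 was Rplp0.

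ICG-001 left the median near 0 and spread the members to both sides. The difference was above 0 for 33 members (50.7% of all genes) and below 0 for 40 (49.3%). With median centring 50 members were above 0 (63.2% of all genes), and the median of all genes then lay at 0.18. The ICG-001 array lay above both vehicle arrays for 24 members (41.8% of all genes) and below both for 36 (39.1%). At a difference of at least 0.32, 11 members were higher (27.6%) and 7 lower (26.7%), and at 1.5-fold 1 was higher (12.6%) and 3 lower (13.1%). The median of the 42 large subunit genes was −0.05 and that of the 27 small subunit genes −0.02, so the subunits were not set apart by their medians.

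Of the 11 members higher by at least 0.32 with ICG-001, 7 belong to the small subunit, 2 to the large subunit and 2 to the stalk. Rps10, a protein of the small subunit head that is ubiquitinated when ribosomes collide, read 11.61 with ICG-001 and 10.84 with its vehicle, a difference of 0.76. The remaining 4 arrays read between 10.91 and 11.26 for Rps10, so the ICG-001 array was the highest. The 6 probe sets with that symbol had differences from 0.34 to 0.76. Against the vehicle for FJ9 the difference of Rps10 was 0.43, under 1.5-fold. Rps2, which borders the path of the mRNA into the ribosome, differed by 0.48, and Rpsa, also known as a laminin receptor, by 0.46. Rps15a (0.42), Rps4y2 (0.40) and Rps18 (0.40) followed. The vehicle for FJ9 read above the vehicle for ICG-001 by 0.25 for Rps15a and 0.18 for Rps4y2, so their differences against it were smaller. For Rps2, Rpsa and Rps18 the vehicles differed by 0.05, 0.01 and −0.04.

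Of the 7 members lower by that much, 5 belong to the large subunit and 2 to the small. Rps24, another gene mutated in Diamond-Blackfan anaemia, read 10.03 with ICG-001 and 10.68 with vehicle (−0.65), and between 10.20 and 10.88 on the other arrays. Rpl36al1 read 8.76 against 9.39 (−0.64), and its other probe set differed by −1.11. Rpl9 read 11.57 against 12.19 (−0.62), with 9 probe sets between −0.70 and −0.52, and against the vehicle for FJ9 its difference was −0.39, under 1.5-fold. Against that vehicle Rpl36al1 differed by −1.09 and Rps24 by −0.73. All 3 genes were lowest on the ICG-001 array. Rpl13a (−0.56) and Rps15 (−0.48) completed the lowest 5. Rpl13a read 12.19 on the ICG-001 array and 12.45 or more on the other 5. Median centring of the arrays left 0 of the 73 genes at least 1.5-fold lower with ICG-001.

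**Figure D3:**
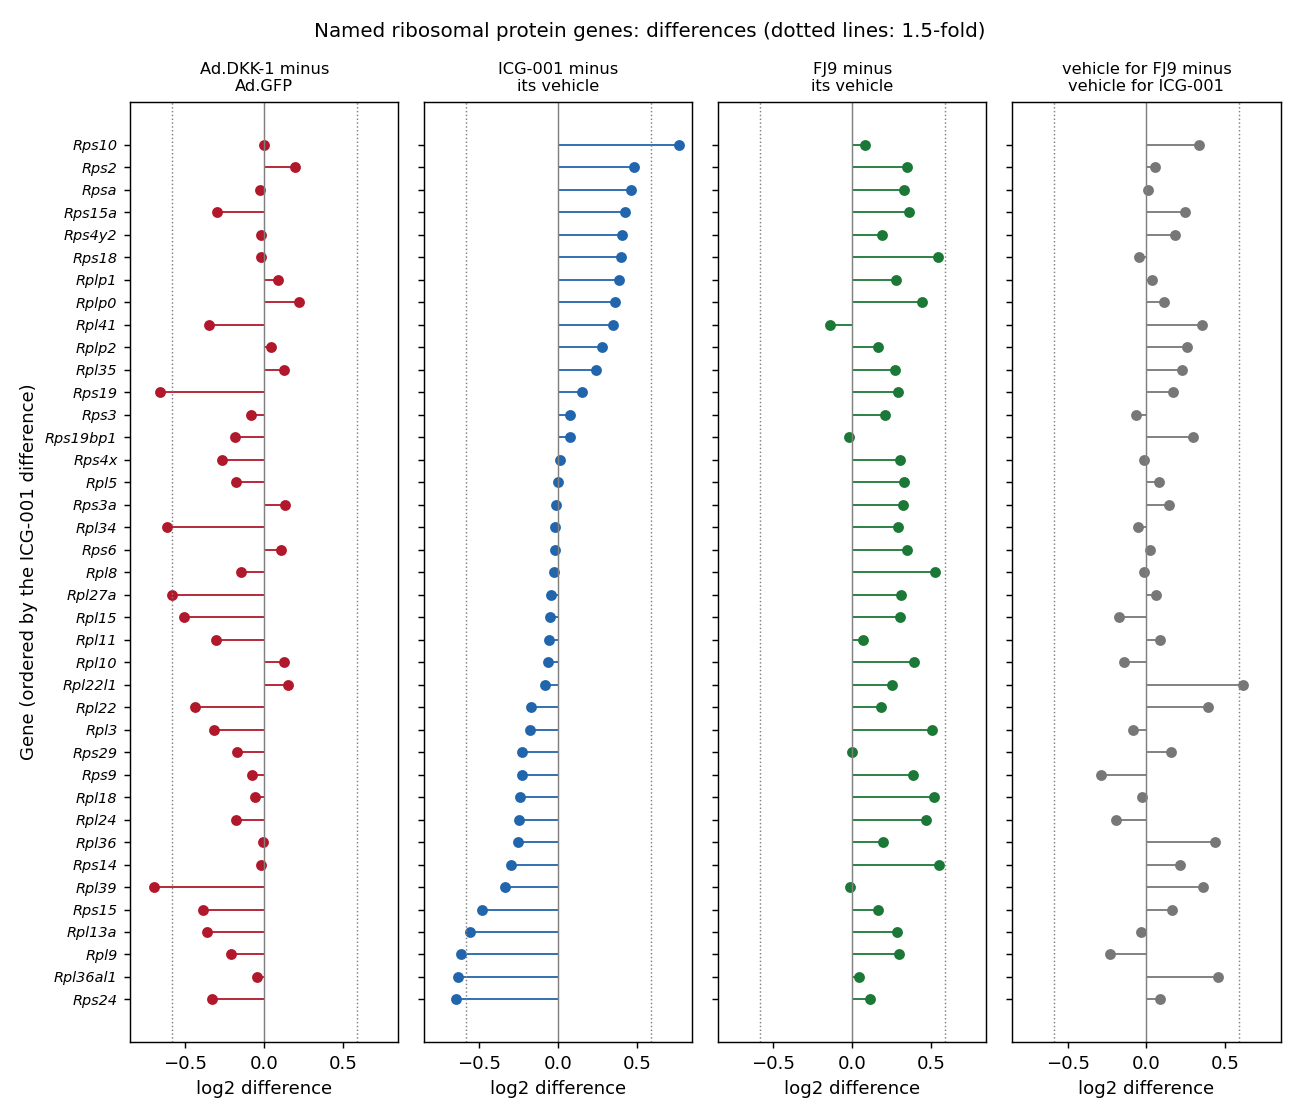
Differences of 39 ribosomal protein genes on the log2 scale (horizontal axes), 1 panel for each treatment minus its own control and 1 for the vehicle arrays. Genes are ordered by the ICG-001 difference, each with 1 point per panel, and dotted lines mark 1.5-fold. The FJ9 panel lies almost wholly right of 0, whereas the ICG-001 panel runs from −0.65 for Rps24 to 0.76 for Rps10.

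The 3 P stalk genes had differences above 0 in every treatment. With FJ9 they did not stand above the other members, since their median was 0.27 beside 0.29 for all 73, and Rplp2 at 0.16 lay under the members' lower quartile of 0.19. Rplp0, the stalk base that anchors the acidic proteins, read 12.38 on Ad.DKK-1 and 12.16 on Ad.GFP, 12.19 with ICG-001 and 11.83 with its vehicle, and 12.39 with FJ9 and 11.94 with its vehicle. Its 3 treated arrays all lay above its 3 control arrays. Rplp1, which forms a dimer with Rplp2 at the stalk, read 12.35 on Ad.DKK-1 and 12.26 on Ad.GFP, 12.63 with ICG-001 and 12.24 with vehicle, and 12.55 with FJ9 and 12.28 with vehicle. Treated and control arrays of Rplp1 did not overlap either. Rplp2 read 12.03 and 11.99, 12.27 and 11.99, and 12.40 and 12.24, each pair given as treated and then control in the same order of treatments. The treated and control arrays of Rplp2 overlapped. The 3 stalk differences under Ad.DKK-1 were 0.22, 0.09 and 0.04 in the order of the gene numbers, and they kept their sign under each of the 3 rescalings and with probe sets averaged. Between the vehicle arrays the same genes differed by 0.11, 0.04 and 0.25, and against the vehicle for FJ9 the ICG-001 difference of Rplp2 was 0.02.

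The members higher in each of the 3 treatments were 6 (23.6% of all genes), namely Rplp0, Rplp1, Rplp2, Rps2, Rpl35 and Rpl38, the last of these named after its values were seen. The members lower in each were 2 (23.4%), Rpl39 and Rps29, and both were higher with FJ9 when set against the vehicle for ICG-001. Rps29 was below 0 with FJ9 only on its chosen probe set (−0.005), and its other 3 probe sets read 0.01 to 0.03. The 3 treated arrays lay above the 3 control arrays without overlap for 4 members (13.9%), Rplp0, Rplp1, Rps2 and Rpl38, and below them for 0 (13.2%). Rps2 read 12.88 on Ad.DKK-1, 12.95 with ICG-001 and 12.87 with FJ9, against 12.69 on Ad.GFP, 12.47 on the vehicle for ICG-001 and 12.52 on the vehicle for FJ9. Its 9 probe sets ran from 0.19 to 0.29, from 0.40 to 0.49 and from 0.32 to 0.50 in the order of the treatments.

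**Figure D4:**
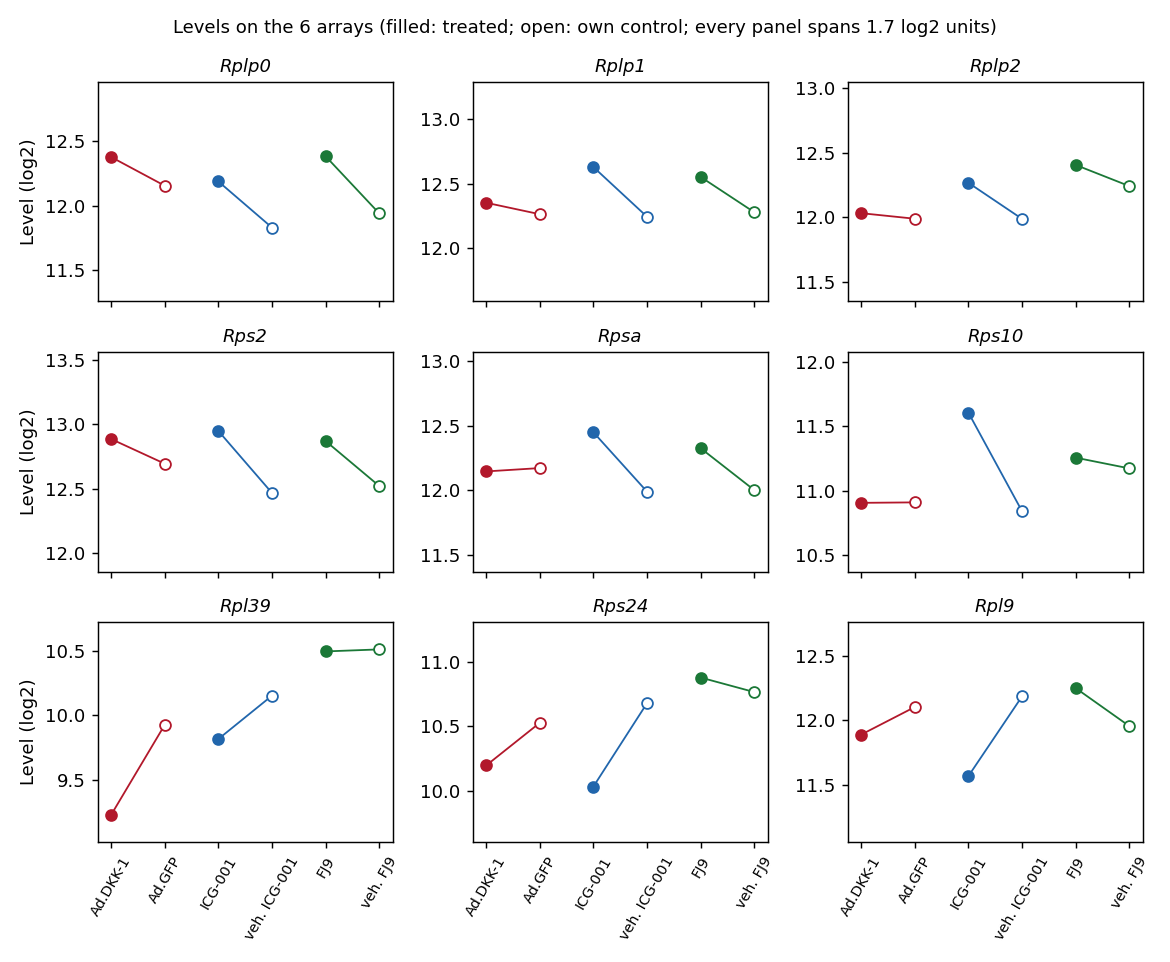
Log2 levels (vertical axes) of 9 ribosomal protein genes on the 6 arrays (horizontal axes), with treated arrays as filled points joined to their own controls as open points. Every panel spans the same height, and the filled points lie above the open ones in all 3 pairs for Rplp0, Rplp1, Rplp2 and Rps2.

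The only replicated contrast was treated against control across the 3 pairs, tested with limma with the pair as a block over all 10025 genes. It asks for a mean difference common to 3 different treatments and says nothing of any treatment alone. Its p-values rest on the spread between these 3 pairs, shrunk towards the spread of genes of like level. Only 2 of 14.4 degrees of freedom were residual, so most of that spread estimate came from the other genes. limma called 0 of the 73 members at a Benjamini-Hochberg adjusted p under 0.05, where it called 860 genes in all (8.58%). At an unadjusted p under 0.05 it counted 0 members, beside 2502 of all genes. The smallest adjusted p-values of members were 0.246 for Rplp0 (mean difference 0.34, SE 0.18), 0.251 for Rps2 (0.34, SE 0.18) and 0.297 for Rpl39 (−0.35, SE 0.20). Rplp0 and Rps2 were higher in 3 of 3 pairs. Rpl39 was lower in 3 of 3, but its FJ9 difference was only −0.02, and it was above 0 against the vehicle for ICG-001.

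The vehicle arrays, neither of which received a compound, differed for members too. The vehicle for FJ9 read higher than the vehicle for ICG-001 for 53 of 73 members (54.3% of all genes). The largest of these differences after that of Rpl22l1 were 0.45 for Rpl36al1, 0.44 for Rpl36, 0.39 for Rpl22 and 0.36 for Rpl39, and the lowest was −0.29 for Rps9. The members' median between the vehicles, 0.10, is the nearest measure in these data of how far vehicle pools differ. The FJ9 and Ad.DKK-1 medians were 0.29 and −0.19 as deposited. With median centring of the arrays FJ9 had 0.29, Ad.DKK-1 −0.10 and the vehicles 0.24 (68 members above 0, beside 71.7% of all genes). The Ad.DKK-1 median then lay nearer to 0 than that of the vehicles, but centring shifts every gene. All genes then had medians of 0.03 with Ad.DKK-1 and 0.16 between the vehicles. The members' median minus that of all genes was −0.12 with Ad.DKK-1 and 0.08 between the vehicles, both as deposited and with centring. A single pair of vehicle arrays gives no spread for that comparison.

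The 34 members outside the rule for named genes lay, by that rule, inside the extremes given above. With Ad.DKK-1 they ran from −0.47 for Rps28 to 0.12 for Rpl4 with 31 below 0, and with ICG-001 from −0.46 for Rpl19 to 0.34 for Rpl37l1 with 18 above 0. With FJ9 they ran from 0.08 for Rpl31 to 0.46 for Rpl13, and 34 of 34 lay above 0. Between the vehicles they ran from −0.09 for Rpl23a to 0.36 for Rpl31. Rpl4 and Rpl19 are proteins of the large subunit, and Rps28 lies near the mRNA exit of the small subunit.

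Paralogues did not track their standard partners in every comparison. Rpl22, an RNA-binding protein of the large subunit, differed by −0.44 under Ad.DKK-1 and Rpl22l1 by 0.15. With ICG-001 they differed by −0.17 and −0.08, and with FJ9 by 0.18 and 0.25. Rpl22l1 read 8.80 with FJ9 and 8.55 with its vehicle, and between 7.82 and 7.97 on the other 4 arrays, so the FJ9 pair stood above the rest whether treated or not. It was the only member past 1.5-fold between the vehicle arrays (0.61), where 2.44% of all genes were that much higher. Rps4x and Rps4y2 differed by −0.27 and −0.02 under Ad.DKK-1, by 0.01 and 0.40 with ICG-001, and by 0.30 and 0.19 with FJ9. Closely related genes and pseudogenes may share probes with them, and the sharing is not known here.

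Probe sets that were not chosen gave similar medians. The 73 genes had 260 probe sets, 55 genes had several and Rpl21 had 21. Over those 187 probe sets the medians were −0.22 under Ad.DKK-1, 0.01 with ICG-001 and 0.28 with FJ9. With FJ9 all probe sets lay above 0 for 51 of the 55 genes with several, and under Ad.DKK-1 all lay below 0 for 41. These probe sets may share probes and are not replicates. Under Ad.DKK-1 the probe sets of some genes differed, with −0.54 and −0.18 for Rpl24. Those of Rpl31 ran from −0.24 to 0.32 and those of Rpl13 from −0.04 to 0.35, so their signs differed. Between the vehicle arrays Rpl24 ran from −0.19 to 0.43.

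The differences of single members were only loosely alike between treatments. Across the 73 genes the differences with Ad.DKK-1 correlated with those with ICG-001 at a Pearson r of 0.25 and with those under FJ9 at 0.28, and ICG-001 with FJ9 at 0.04. Over all 10025 genes the same correlations were 0.46, 0.45 and 0.45. The pairs share no array, the points are genes of the same arrays and not independent, and the members' range is narrow.

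Other parts of the translation machinery gave a partly different picture. Fau, which encodes a small subunit protein fused to a ubiquitin-like peptide, differed by 0.29 under Ad.DKK-1, 0.01 with ICG-001 and 0.44 with FJ9. Rack1, a scaffold on the small subunit, differed by −0.07, 0.24 and 0.33. Among 16 other genes with TOP mRNAs the medians were 0.01, −0.02 and 0.30, and 15 of the 16 were above 0 with FJ9. Eef2, the translocase of elongation, differed by 0.28 with FJ9 and −0.36 with ICG-001, and Eif4b, a helicase cofactor, by 0.60 with FJ9. Hnrnpa1 was the single gene of these 16 below 0 with FJ9 (−0.53).

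Genes with Eif symbols, which cover initiation factors along with their kinases and binding proteins and share some genes with the TOP list, had medians of 0.41 under Ad.DKK-1, 0.28 with ICG-001 and 0.24 with FJ9. At least 1.5-fold higher were 14, 6 and 8 of the 43, where all genes had 14.5%, 12.6% and 11.6%. At least 1.5-fold lower were 1, 0 and 2, where all genes had 20.8%, 13.1% and 14.8%. Mitochondrial ribosomal protein genes had medians of 0.17, 0.21 and 0.19, with 9, 14 and 9 of 67 higher and 4, 0 and 3 lower by that fold. The counts of 9 lie near those same shares of all genes. Subunits of RNA polymerases I and III, which transcribe rRNA and other small RNAs, had medians of 0.31, 0.45 and 0.22 over 16 genes. Under Ad.DKK-1 the cytosolic ribosomal protein genes thus had a median below 0 while the medians of these 3 lists lay above it, and the difference between lists was not tested.

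**Figure D5:**
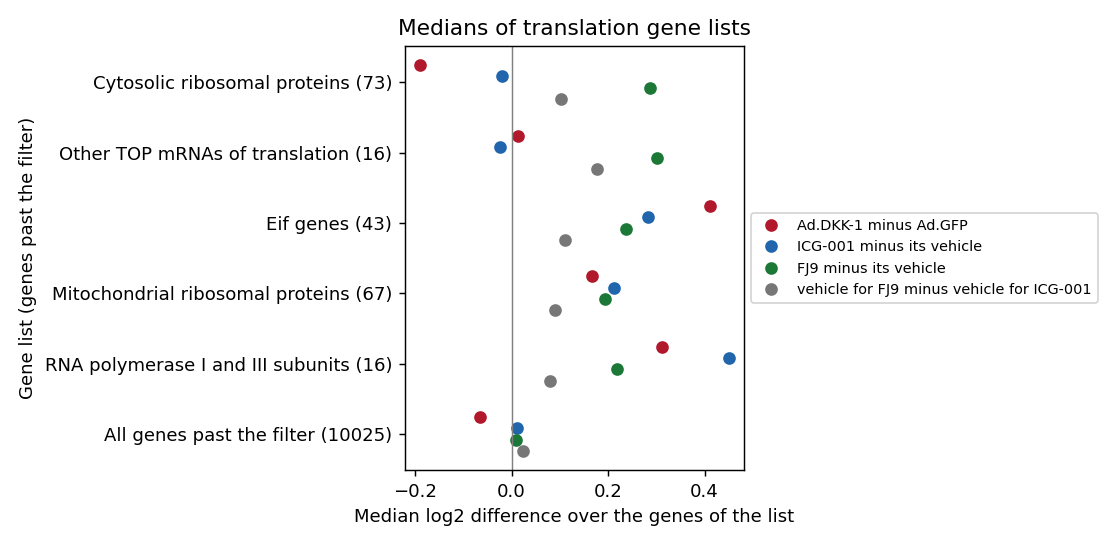
Median log2 difference (horizontal axis) of translation gene lists (vertical axis, number of genes in brackets), with 1 colour per comparison. With FJ9 the 5 lists lie between 0.19 and 0.30, whereas under Ad.DKK-1 the cytosolic ribosomal proteins lie at −0.19 and the Eif genes at 0.41.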

How the data were processed

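The deposited table holds the authors' log2 values for 6 arrays. The submitters' processing notes name RMA and Affymetrix Expression Console, with versions not given in the sources used here. All 6 columns were used as deposited. Of 26988 probe sets, 15092 carried 1 gene symbol in the platform annotation, 323 several, and 11573 are unnamed here. Entrez identifiers of 71 of the 73 members matched the RefSeq table of GRCr8, with 0 symbols changed. A gene was represented by its brightest probe set on average. Differences, counts past 1.5-fold and medians were computed with pandas 2.3.3. limma 3.58.1 in R 4.3.3 (lmFit, eBayes with trend, two-sided, pair as block) was tested on simulated data. The simulated shifts were alike on every treated array and larger than any member's difference. That test therefore says nothing of differences as small as those of the members. No replicate exists within a group, and the number of arrays limits precision. Named genes were those past 1.5-fold, the 5 highest and 5 lowest members of each comparison, the 3 with the smallest limma p, and fixed genes by role or paralogy. Alternatives covered scaling, filter, fold, probe set choice, vehicle array and block. The members and lists were chosen with earlier results of these data known. Sequences were not used here.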

Additional observations from a re-analysis of the deposited data

Results flagged for a closer look

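The members' median difference had opposite signs in 2 treatments, −0.19 under Ad.DKK-1 and 0.29 with FJ9. It was also −0.0204 with ICG-001 against 0.29 with FJ9, and the ICG-001 sign turned with median centring (0.15). With 1 array a group the difference between treatments was not tested.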

How the results depend on the processing

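Medians were taken as unmoved when they shifted by less than 0.10, the members' median between the vehicle arrays. The Ad.DKK-1 median shifted by less than that but was −0.10 with median centring, against −0.19 as deposited, and was −0.22 at the furthest over single probe sets. The FJ9 median ran from 0.25 to 0.37. The ICG-001 median was 0.15 with median centring, where the median of all genes was 0.18, because centring shifts every gene. The number at least 1.5-fold lower under Ad.DKK-1, 4 as reported, was 1 with median centring, 2 with quantile normalization and 2 with cyclic loess. It was 14 at a difference of 0.32 and 0 at 2-fold. For ICG-001 the 1 higher and 3 lower were 4 and 0 with median centring, 0 and 6 against the vehicle for FJ9, 11 and 7 at a difference of 0.32, and 0 and 0 at 2-fold. For FJ9 the 0 higher were 5 against the vehicle for ICG-001, 1 against the mean of the vehicles and 26 at a difference of 0.32. The shares of all genes past 1.5-fold given above hold for the deposited values and own controls. Counts at 1.5-fold under another scaling or vehicle have no such share beside them here. limma called 0 members under every alternative, among them the fit without the pair as replicate block (422 genes in all) and those leaving out each pair. Its smallest member adjusted p ran from 0.179 (median centring) to 0.456 (without the ICG-001 pair), and all genes called ran from 422 to 922. Without the Ad.DKK-1 pair 1 member had an unadjusted limma p under 0.05 (20.2% of all genes), likewise without the FJ9 pair (20.2%). With median centring 2 members did (24.2% of all genes). Exchanging the vehicle arrays, and taking all 260 probe sets singly, were chosen after seeing the data. Of 624 recomputed values for the 39 named genes, 92 shifted by over 0.165, among them 36 against the other vehicle and 39 with median centring, and 0 turned sign from past 1.5-fold.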

Other observations

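Regulators of ribosomal protein genes were also measured. Myc was higher in each treatment, with 9.97 on Ad.DKK-1 and 8.95 on Ad.GFP, 10.75 with ICG-001 and 9.99 with its vehicle, and 10.77 with FJ9 and 9.97 with its vehicle. The differences of 1.03, 0.75 and 0.81 were past 1.5-fold each time, where 14.5%, 12.6% and 11.6% of all genes were that much higher. The Ad.DKK-1 level of Myc lay close to those of both vehicle arrays, and its Ad.GFP level lay below every other array. The medians of the 73 members were −0.19, −0.02 and 0.29, and a link between Myc and the members was not tested. Mxd4, which opposes Myc at shared sites, differed by −0.40, −1.36 and −1.49 in the same order. Eif4ebp1, which restrains cap-dependent translation and is an mTOR substrate, differed by 0.62, 0.71 and 0.79. Ddit4, an inhibitor of mTOR signalling, differed by −1.10, −0.40 and 0.04, and Rps6kb1, which encodes the main S6 kinase, by 0.42, −0.13 and −0.02. The 13 regulators past the filter had medians of 0.23, 0.19 and 0.19, with 7, 9 and 9 above 0. They included Eif4ebp2 (−0.25, 0.34 and 0.20), Mtor (0.54, 0.20 and −0.18) and Tsc2 (0.23, 0.16 and 0.88), so the regulators did not move as 1 group.

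Ad.GFP minus the mean of the vehicles had a median of −0.005 over the members, with 36 above 0 and 37 below, from −0.42 for Rpl22l1 to 0.27 for Rplp0. Over all genes the median was 0.02 and the standard deviation 0.40, and 12.9% were past 1.5-fold, beside 0.34 and 7.64% between the vehicles, and the cultures differed in virus, serum and time. Across members this difference correlated with mean level at a Pearson r of 0.50, and the difference between the vehicle arrays did at −0.45.

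Among genes outside the group, the profiles nearest to the members' median profile, by root mean square distance of levels centred on each gene's mean over the 6 arrays, were P4ha1 (0.04), Grk4 (0.05) and Washc2c (0.05).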
